A study of Homo sapiens with 26 samples.

Results

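The pregnancy-specific glycoproteins are 10 genes here, PSG1, PSG2, PSG3, PSG4, PSG5, PSG6, PSG7, PSG8, PSG9 and PSG11, taken by symbol from a table of 33562 genes. They were chosen by their RPKM values in AURKA and control lines, where earlier results of these data had them lower in the AURKA lines. That difference is therefore given as a description with no test. RNA was sequenced from MDA-MB-231 cells, a human triple-negative breast cancer line, in 26 libraries of 9 lines. AURKA encodes Aurora kinase A, a serine/threonine kinase of mitosis.

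The 6 AURKA lines are clones at passages 32 to 35. WT-AURKA c1 (3 libraries), WT-AURKA c2 (2 libraries), NES-AURKA c1 and NES-AURKA c2 (3 libraries each) carry a cDNA labelled MUT2 together with sgAURKA2. NLS-AURKA c2 and NLS-AURKA c3 (3 libraries each) carry a cDNA labelled MUT1 together with sgAURKA1. The 3 control lines, Empty, NES-Empty and NLS-Empty (3 libraries each), carry the empty vector and sgCon and were at passages 19 to 20. All 9 lines are MDA-MB-231Luc with the pLUTZ mRFP vector, kept in doxycycline, which switches on the cDNA from an rtTA-responsive promoter. NES and NLS are the usual names of nuclear export and nuclear localisation signals. The cDNA, the guide RNA, the passage number and the growth of a line from 1 clone change together between AURKA and control lines and cannot be told apart. The guide and the construct cannot be told apart for NLS lines either. The labels do not say whether the libraries of 1 line are separate cultures; p-values over libraries measure only the spread between these libraries, which may be technical. A letter heads each title. Libraries A to H (1 per line, none for WT-AURKA c2) stood apart from libraries I to Z (2 per line).

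PSG proteins are secreted glycoproteins of the immunoglobulin superfamily and belong to the carcinoembryonic antigen family. The syncytiotrophoblast of the placenta releases them in large amounts into maternal blood, and most other normal tissues express little. Several of them, PSG1 and PSG9 among them, activate latent TGF-beta1, and PSG1 binds integrins, heparan sulphate proteoglycans and galectin-1.

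The genes sit next to each other on the minus strand of chromosome 19, in the order PSG3, PSG8, PSG1, PSG6, PSG7, PSG11, PSG2, PSG5, PSG4 and PSG9. Their sequences bear on every value that follows, because short reads from one member can fit another. Over 45 pairs, coding sequences (GENCODE v29, GRCh38) were 71.4% to 95.1% identical, with a median of 92.7%. The lowest values were PSG7 with PSG2 (71.4%) and with PSG11 (71.6%), from transcripts of 894 against 1008 coding bases. To PSG1, PSG7 was 94.2%, PSG2 93.2% and PSG11 90.1% identical. End-to-end alignment can set unlike parts of such transcripts against each other, so the low values do not measure how far these members differ. Of all 50-base windows, 22.9% of PSG9, 24.5% of PSG5, 43.5% of PSG1 and 16.5% of PSG4 also occurred in another member. The range over the family ran from 16.5% in PSG4 to 43.7% in PSG8. How reads that fit several places were counted is not given in the sources used here, so the split of reads among members is uncertain. The first 90 coding bases of the 4 members with the most signal show how alike they are. Capitals mark bases that differ from PSG9, which number 4 in PSG5, 7 in PSG1 and 4 in PSG4.
PSG9: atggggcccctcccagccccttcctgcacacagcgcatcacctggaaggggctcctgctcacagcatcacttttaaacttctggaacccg
PSG5: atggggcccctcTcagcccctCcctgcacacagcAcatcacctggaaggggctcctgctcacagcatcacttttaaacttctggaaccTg
PSG1: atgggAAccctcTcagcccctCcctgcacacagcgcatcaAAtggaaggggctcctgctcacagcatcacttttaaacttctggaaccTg
PSG4: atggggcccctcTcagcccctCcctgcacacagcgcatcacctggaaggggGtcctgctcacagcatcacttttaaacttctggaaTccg

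The members were low together in the AURKA lines, so the upstream sequences of the 3 with a RefSeq promoter entry (GRCh38.p14), PSG3, PSG5 and PSG4, are shown as well. Each is the 250 bases before the gene's start, on the minus strand: chr19:42740482-42740731 for PSG3, chr19:43186537-43186786 for PSG5 and chr19:43205639-43205888 for PSG4. Capitals mark CACCC in PSG5. In PSG3 and PSG4 they mark CCGCCC, which reads as GGGCGG on the other strand.
PSG3: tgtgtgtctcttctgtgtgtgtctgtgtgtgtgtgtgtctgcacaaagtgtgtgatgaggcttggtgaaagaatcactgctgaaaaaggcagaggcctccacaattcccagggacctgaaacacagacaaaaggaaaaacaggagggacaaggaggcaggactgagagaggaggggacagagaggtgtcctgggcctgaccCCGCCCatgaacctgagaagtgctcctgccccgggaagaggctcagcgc
PSG5: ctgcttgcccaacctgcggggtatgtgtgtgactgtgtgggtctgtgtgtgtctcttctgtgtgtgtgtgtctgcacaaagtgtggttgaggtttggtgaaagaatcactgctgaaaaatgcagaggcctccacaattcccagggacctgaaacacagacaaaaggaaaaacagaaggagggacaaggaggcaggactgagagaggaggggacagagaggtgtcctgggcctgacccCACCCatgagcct
PSG4: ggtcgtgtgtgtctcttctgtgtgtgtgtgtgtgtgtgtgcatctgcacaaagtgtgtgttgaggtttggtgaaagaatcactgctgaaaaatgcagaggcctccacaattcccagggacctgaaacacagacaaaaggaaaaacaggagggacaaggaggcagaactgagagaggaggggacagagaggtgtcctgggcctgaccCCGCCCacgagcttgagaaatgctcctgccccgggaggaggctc
Aligned to each other, the 3 sequences were 94.1% to 96.3% identical. CACCC, a core letter string of KLF and SP factor sites, occurred on either strand in 54.7% of 35116 promoters of the same length, and GGGCGG in 42.6%. Searched on both strands, the ETS core CGGAAG occurred in 16.5% of all promoters, the TATA box letters TATAAA in 10.7% and the nuclear receptor half-site AGGTCA in 12.1%, and the 3 windows held none of these. A match is a description of letters and not a binding site. The windows held 3 (PSG3), 1 (PSG5) and 4 (PSG4) CG dinucleotides, against a median of 11 over all promoters. Counts as low or lower occurred in 29.3%, 14.7% and 34.3% of all promoters, in the same order.

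The libraries had estimated depths of 12000000 to 20200000 reads, with medians of 18400000 in A to H and 14750000 in I to Z. AURKA itself ranged from 12.7 to 105 RPKM in AURKA libraries, against 34.0 to 68.9 RPKM in control libraries; the deposited values do not separate cDNA from endogenous transcripts. VIM (vimentin, 234 to 1059 RPKM over all libraries) and CD44 (32.2 to 69.4 RPKM) were high and ESR1 (estrogen receptor, at most 0.0221 RPKM) was near 0, as MDA-MB-231 cells are known for. PGR (progesterone receptor) was at most 0.0120 RPKM. ERBB2 (HER2), the other receptor marker, was at 2.24 to 5.06 RPKM and so not near 0. The placental markers GCM1 and ERVW-1 (syncytin-1) were at most 0.0482 and 0.0450 RPKM in any library, and HLA-G at most 0.646 RPKM. The chorionic gonadotropin genes CGB5 and CGB8 reached 1.20 and 2.30 RPKM in AURKA libraries, against 0.172 and 0.0802 RPKM in control libraries, with a median of 0 over AURKA libraries. In bulk RNA, fewer cells that express a gene and less RNA per cell cannot be told apart.

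In the control lines the family was led by PSG9, and in the AURKA lines every member was low. PSG9 was listed at 0.0810 to 0.812 RPKM over the 17 AURKA libraries, with a median of 0.142, against 8.66 to 64.1 RPKM over the 9 control libraries, with a median of 12.6. The lowest control library was above the highest AURKA library. As line means, PSG9 averaged 0.253 ± 0.117 RPKM in AURKA lines (SD, n = 6) and 25.9 ± 3.22 RPKM in control lines (SD, n = 3), so the control mean was 102 times the AURKA mean. On the log2(RPKM + 1) scale the difference was −4.04 (SE 0.11). Only 1 of 12589 genes fitted had a lower log2 difference.

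PSG5 had 0.175 to 0.657 RPKM in AURKA libraries (median 0.368) and 2.76 to 31.6 RPKM in control libraries (median 5.71), and the groups did not overlap. Its line means were 0.371 ± 0.0798 RPKM in AURKA lines and 10.9 ± 3.31 RPKM in control lines, a log2 difference of −2.73 (SE 0.15) and a ratio of 29.3 of control to AURKA. PSG1, the member best known for TGF-beta1 activation, had 0.0269 to 0.338 RPKM in AURKA libraries (median 0.0805) and 1.55 to 16.6 RPKM in control libraries (median 2.88). Again no library of one group reached the other. Its line means were 0.118 ± 0.0280 RPKM in AURKA lines and 5.24 ± 1.96 RPKM in control lines, a log2 difference of −2.13 (SE 0.13). PSG9, PSG5 and PSG1 ranked 2, 9 and 15 from the lowest among the 12589 log2 differences. The choice of members used this contrast, so the ranks are a description and support nothing.

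PSG4 was the exception in size. It had 0.233 to 1.38 RPKM in AURKA libraries (median 0.650) and 1.41 to 3.44 RPKM in control libraries (median 1.93), with the highest AURKA library just under the lowest control library. Line means were 0.686 ± 0.115 RPKM in AURKA lines and 2.21 ± 0.204 RPKM in control lines, a ratio of 3.21 of control to AURKA and a log2 difference of −0.92 (SE 0.088). It was the only member whose AURKA line mean exceeded 0.5 RPKM.

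**Figure D1:**
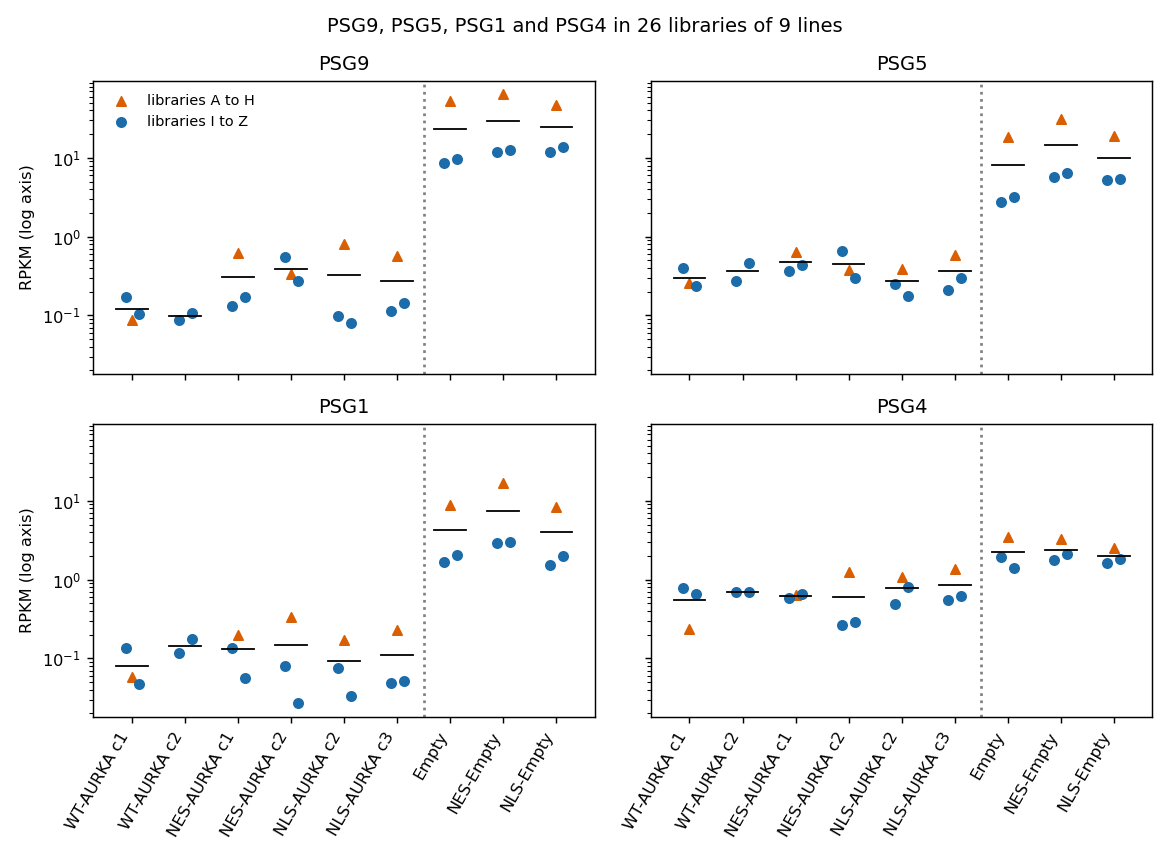
RPKM (log axis) of PSG9, PSG5, PSG1 and PSG4 in each library of each line, AURKA lines left of the dotted line and control lines right of it; triangles are libraries A to H, circles libraries I to Z, and bars are line means. No AURKA library reaches a control library for these 4 genes, and the control triangles lie above the control circles.

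The other 6 members had control line means of 2.05 RPKM or less. PSG7 averaged 0.0425 ± 0.0415 RPKM in AURKA lines and 2.05 ± 0.518 RPKM in control lines. PSG6, one of the members known to induce cytokines in monocytes, averaged 0.0228 ± 0.0163 RPKM in AURKA lines and 1.11 ± 0.390 RPKM in control lines. PSG3 averaged 0.0336 ± 0.0580 RPKM in AURKA lines and 0.885 ± 0.527 RPKM in control lines. Both groups stayed apart in each of these line means. PSG8 averaged 0.0121 ± 0.00725 RPKM in AURKA lines and 0.810 ± 0.212 RPKM in control lines. PSG2 averaged 0.103 ± 0.0795 RPKM in AURKA lines and 0.766 ± 0.219 RPKM in control lines. PSG11, the lowest of the family and another member known to induce cytokines, averaged 0.0201 ± 0.0287 RPKM in AURKA lines and 0.398 ± 0.175 RPKM in control lines. Their control means were 7.45 (PSG2) to 67.1 (PSG8) times their AURKA means. Of 260 member values, 34 were 0 and 3 more were above 0 and under 0.0001; all of these were in AURKA libraries. A single read is worth about 0.0105 to 0.0193 RPKM in PSG7, PSG3, PSG6, PSG8 and PSG11 at the median depths, so the AURKA means of these genes rest on a few reads a library. The 3 values under 0.0001 are far below 1 read, so not every read was counted whole and these steps are approximate.

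All 6 AURKA line means lay below all 3 control line means for 10 of 10 members, against 16.3% of the genes fitted; since the choice of members used this contrast, nothing is read from that count. Over libraries, the groups did not overlap for 7 of 10 members, against 1.91% of genes, the exceptions being PSG3, PSG2 and PSG11. Within A to H libraries alone 10 of 10 members did not overlap, against 13.6% of genes, and within I to Z libraries alone 10 of 10, against 7.67% of genes; these counts come from the same contrast and support nothing. The filter of 1 RPKM in 2 libraries was passed by 9 members (not by PSG11) and, in I to Z libraries alone, by PSG9, PSG5, PSG1 and PSG4. The mean log2 difference over the 10 members was −1.44 with all libraries, −2.23 in A to H and −1.04 in I to Z libraries. For PSG9, the control mean was 113 times the AURKA mean in A to H libraries and 67.4 times in I to Z libraries. PSG10P, a pseudogene of the same cluster that is not among the 10, had 0 to 0.224 RPKM in AURKA libraries and 0.398 to 1.37 RPKM in control libraries.

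**Figure D2:**
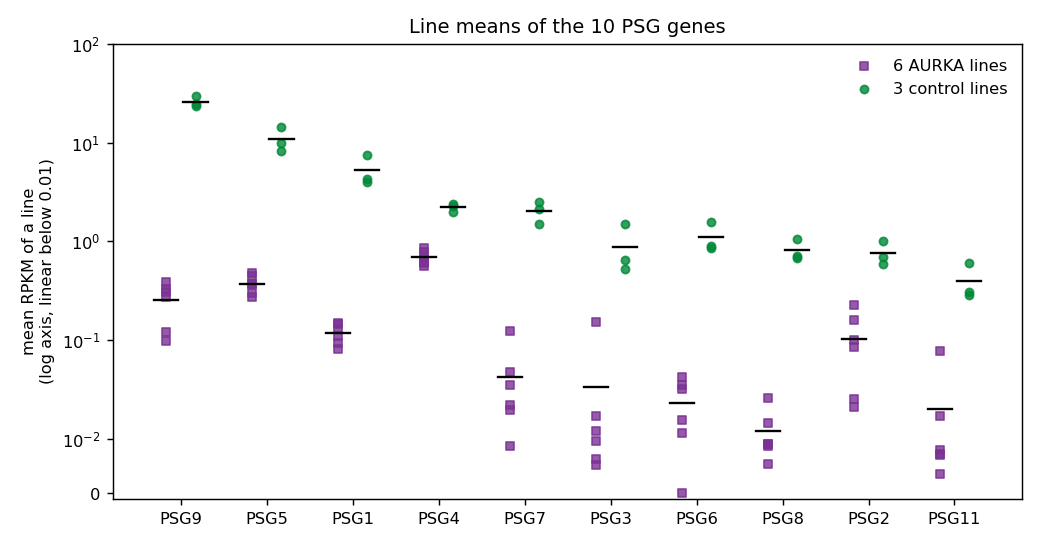
Mean RPKM of each line (log axis, linear below 0.01) for the 10 PSG genes, 6 AURKA lines as squares left of 3 control lines as circles, with bars for the mean of each group. All squares lie below all circles of the same gene; the gap is narrowest in PSG4.

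The make-up of the family signal differed along with its size. Summed over the 10 genes, it was 0.761 to 3.20 RPKM in AURKA libraries (median 1.54, n = 17) and 16.6 to 132.0 RPKM in control libraries (median 25.7, n = 9). PSG4 was the highest member in 14 of 17 AURKA libraries and PSG5 in the other 3, whereas PSG9 was the highest in 9 of 9 control libraries. PSG9 made up 6.66% to 32.4% of the sum in AURKA libraries and 46.2% to 54.6% in control libraries. PSG4 made up 15.2% to 73.4% in AURKA libraries and 2.47% to 11.7% in control libraries. PSG5 held a share of 11.9% to 38.2% in AURKA libraries and 16.7% to 23.9% in control libraries, and these ranges overlapped.

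**Figure D3:**
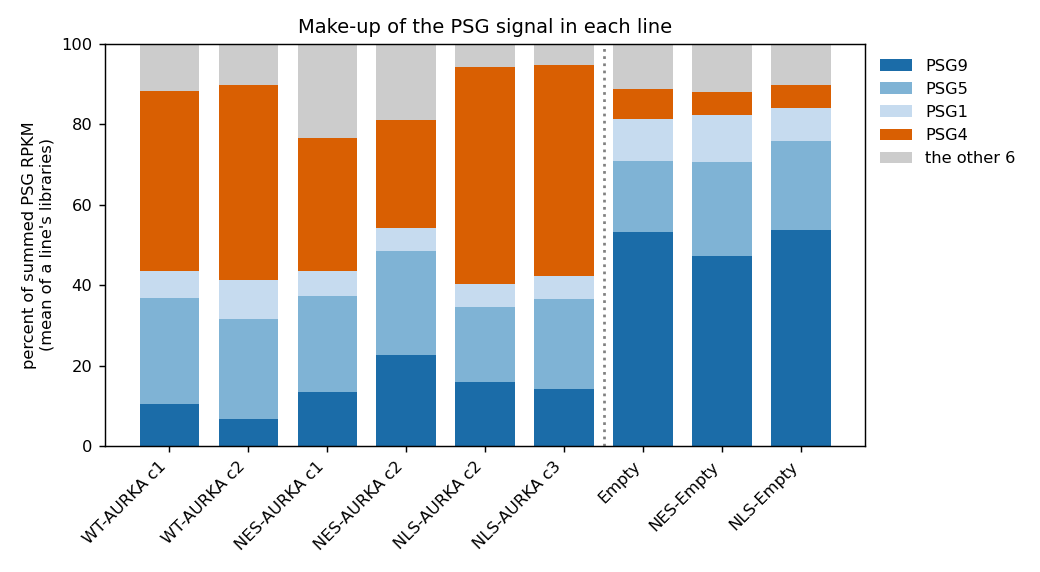
Percent of the summed PSG RPKM held by PSG9, PSG5, PSG1, PSG4 and the other 6 genes together, as the mean over the libraries of each line, AURKA lines left of the dotted line and control lines right of it. PSG9 takes 47.3% to 53.7% in control lines and 6.73% to 22.6% in AURKA lines, and PSG4 takes 26.8% to 54.1% in AURKA lines.

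Among the control lines the order of levels was PSG9, PSG5, PSG1 in each of the 3, then PSG4 and PSG7 in an order that changed between lines, with PSG11 last in each. PSG9 line means differed by less than the spread between libraries: limma gave log2 differences of 0.35 (SE 0.59) for NES-Empty against Empty, 0.25 (SE 0.59) for NLS-Empty against Empty and −0.10 (SE 0.59) for NLS-Empty against NES-Empty. No member was called in these 3 comparisons (limma, adjusted p under 0.05 and an absolute log2 difference of at least 1), where 0.0159%, 0% and 0.0318% of 12589 genes were, and each member had an adjusted p of 1 with 0 members at an unadjusted p under 0.05. The libraries of a control line span both letter sets, which widens the error of these tests.

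The clones of each construct gave the same count. No member was called by limma in WT-AURKA c2 against c1 (0% of genes called), NES-AURKA c2 against c1 (1.08%) or NLS-AURKA c3 against c2 (0%), with 0 members at an unadjusted p under 0.05. With the letter set as a term in the fit, no member was called in these 6 comparisons of lines either. That term is 1 value for all lines, while the set difference of PSG9 was 2.17 in control lines and 0.31 in AURKA lines. Part of the set difference therefore stays in the error, and nothing is read from this count. In the clones, all members but PSG4 stayed under 1 RPKM in every library. On the log2(RPKM + 1) scale such low members can hardly reach the limit of 1. The error is also shared with the control libraries. So nothing is read from the counts between clones.

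The constructs were compared over lines, 2 a construct, a comparison that the choice of members did not use. No member was called by limma (adjusted p under 0.05) in NLS-AURKA against NES-AURKA, where 33.2% of genes were, in NLS-AURKA against WT-AURKA, where 36.1% were, or in NES-AURKA against WT-AURKA, where 4.87% were. Unadjusted p was under 0.05 for 0, 0 and 1 members. Of the 9 members tested, only PSG4 reached 1 RPKM in an AURKA library, and the other 8 passed the filter through the control lines alone. On the log2(RPKM + 1) scale such low genes can hardly be called, so nothing is read from these counts or from the shares beside them. PSG9 averaged 0.347 ± 0.0574 RPKM in NES-AURKA lines, 0.303 ± 0.0391 RPKM in NLS-AURKA lines and 0.110 ± 0.0164 RPKM in WT-AURKA lines (SD, n = 2 each). NES-AURKA against WT-AURKA was a log2 difference of 0.27 (SE 0.12) with a limma adjusted p of 0.216. These means mix the letter sets unequally, since WT-AURKA c2 has no A to H library. In I to Z libraries alone, PSG9 averaged 0.151 and 0.413 RPKM in the NES-AURKA lines, 0.0895 and 0.127 RPKM in the NLS-AURKA lines, and 0.138 and 0.0982 RPKM in the WT-AURKA lines. There the NLS-AURKA lines overlapped the WT-AURKA lines. The NES-AURKA line means lay above the WT-AURKA line means, that of NES-AURKA c1 only narrowly. By library, NES-AURKA c1 (0.132 and 0.169 RPKM) overlapped WT-AURKA c1 (0.171 and 0.104 RPKM).

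These levels are under 1 RPKM, where a pseudocount of 1 holds log2 differences small. With a pseudocount of 0.1, limma called 1 member in each comparison. PSG9 was called in NES-AURKA against WT-AURKA (0.98, adjusted p = 0.0304) and in NLS-AURKA against WT-AURKA (0.63, adjusted p = 0.0317). Neither PSG9 call held once the letter set was a term in the fit, with 0.74 (limma adjusted p = 0.0836) for NES-AURKA and 0.39 (limma adjusted p = 0.172) for NLS-AURKA against WT-AURKA. That term is 1 value for all lines. For PSG9 it was 1.45, against 0.97 within AURKA lines and 2.26 within control lines. It takes more from the AURKA libraries than their own set difference, so nothing is read from the lost calls. In I to Z libraries alone the PSG9 differences were 0.70 (limma adjusted p = 0.259) for NES-AURKA and −0.06 (limma adjusted p = 0.903) for NLS-AURKA against WT-AURKA. PSG2 was called in NLS-AURKA against NES-AURKA (−1.17, adjusted p = 0.0277), with line means of 0.0232 ± 0.00299 RPKM in NLS-AURKA and 0.193 ± 0.0472 RPKM in NES-AURKA lines. This call held with the letter set as a term (limma adjusted p = 0.0208) and was lost in I to Z libraries alone (−0.93, limma adjusted p = 0.0543). PSG4 averaged 0.819 ± 0.0460 RPKM in NLS-AURKA, 0.610 ± 0.0193 RPKM in NES-AURKA and 0.629 ± 0.101 RPKM in WT-AURKA lines, and was not called at either pseudocount.

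Within the control lines, libraries A to H held more PSG signal than libraries I to Z. For each of the 10 members, the A to H library of a control line was above both I to Z libraries in 3 of 3 lines. PSG9 had 52.6 RPKM in Empty, 64.1 RPKM in NES-Empty and 47.4 RPKM in NLS-Empty in the A to H libraries, against 8.66 and 9.59, 11.9 and 12.6, and 11.9 and 13.9 RPKM in the I to Z libraries of the same lines. The 2 sets did not overlap. The ratio of A to H over I to Z was 3.68 to 5.77 in PSG9, 3.57 to 6.27 in PSG5 and 4.70 to 5.65 in PSG1. It was highest in PSG7, at 9.60 to 16.6, and lowest in PSG4, at 1.47 to 2.06. For all genes fitted, the median ratio of a line was 0.837 to 0.970, and 5.24% to 7.07% of genes exceeded 3. The test within the control lines used limma with a line term (adjusted p under 0.05 and an absolute log2 difference of at least 1). It was fitted on all 26 libraries, with 1 shared spread for each gene. That spread includes the AURKA libraries, where most members lie near 0 and vary little. The SE and p therefore do not measure the spread within control lines alone. In this test 4.7% of genes were called higher in A to H. PSG9, PSG5, PSG1 and PSG4 pass the filter on I to Z libraries alone. Of these 4, PSG9 (2.17, SE 0.13, limma adjusted p = 2.79e-10), PSG5 (2.06, SE 0.11, limma adjusted p = 8.38e-11) and PSG1 (1.90, SE 0.087, limma adjusted p = 9.25e-12) were called higher, and PSG4 (0.55, SE 0.16, limma adjusted p = 0.00469) was under the limit of 1. The other 5 tested entered the test only through the A to H libraries where they are high, so their differences are values and no support. They were 2.09 for PSG7, 1.18 for PSG8, 1.17 for PSG3, 0.87 for PSG6 and 0.64 for PSG2. Over all lines, only PSG9 was called (1.01, SE 0.21, limma adjusted p = 0.000274), against 7.05% of genes, and the call was lost whichever of the 9 control libraries was left out. The limit of 1 decided this. With a library left out, the log2 difference of PSG9 was 0.81 to 1.16, with a limma adjusted p of at most 0.00142.

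The nuclear RNAs MALAT1 and NEAT1 differed between the sets as well. MALAT1 had 175 to 561 RPKM in A to H libraries and 6.10 to 33.5 RPKM in I to Z libraries, and NEAT1 had 6.02 to 31.3 RPKM in A to H and 0.331 to 1.09 RPKM in I to Z libraries. Their part in the PSG result was not tested, and the labels do not say what the letters stand for.

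Within the AURKA lines, limma called no member between the sets, against 6.57% of genes called, with 4 members at an unadjusted p under 0.05. A gene near 0 can hardly differ between sets on the log2(RPKM + 1) scale, so nothing is read from that count. PSG9 was higher in the A to H library than in both I to Z libraries in 3 of 5 AURKA lines, with ratios of 0.641 to 9.07 and a median of 4.10, and PSG1 in 4 of 5, with ratios of 0.642 to 6.29. PSG4, the member with the most AURKA-line signal, had ratios of 0.324 to 4.53. The log2 difference between the sets was 0.31 (SE 0.10) in AURKA lines and 2.17 (SE 0.13) in control lines for PSG9. For PSG4 it was 0.26 (SE 0.12) in AURKA lines and 0.55 (SE 0.16) in control lines. Each SE here rests on the spread shared by all 26 libraries. The members were chosen for low values in AURKA lines, which holds the first of each pair near 0, so the gap between the pairs is a description with no test.

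**Figure D4:**
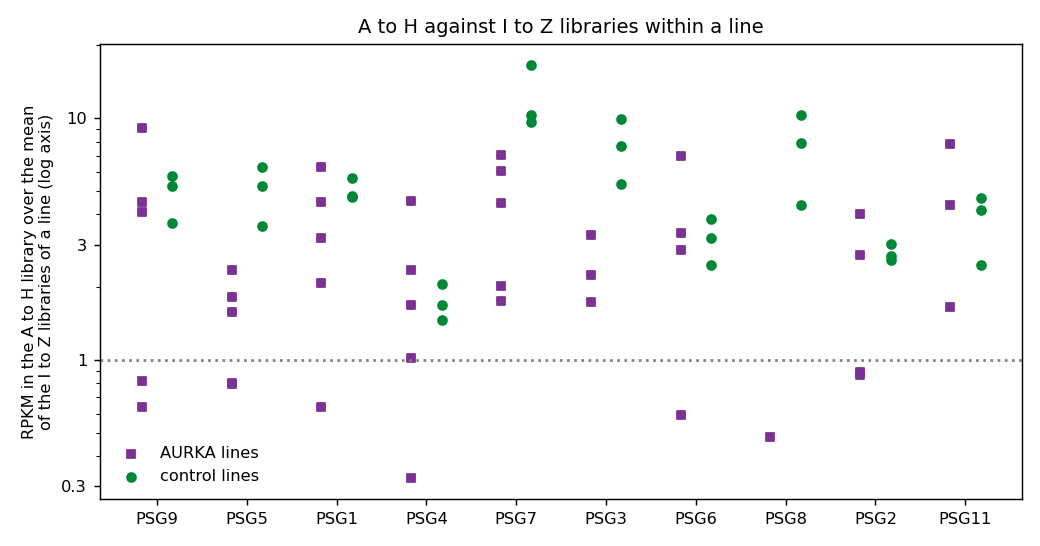
Ratio of the A to H library to the mean of the I to Z libraries of the same line (log axis) for the 10 PSG genes, AURKA lines as squares left of control lines as circles; ratios of 0 or against a mean listed at 0 or under 0.0001 are not drawn. Control ratios lie above 1 for every gene and reach 16.6 in PSG7, while AURKA ratios lie on both sides of 1 in PSG9, PSG5, PSG1, PSG4, PSG6 and PSG2.

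In AURKA against control lines, limma called 19.2% of 12589 genes (adjusted p under 0.05), 8.85% higher and 10.4% lower, with a median log2 difference of −0.02. Genes tied to the PSG proteins by function were called in counts near those shares, so the lists give single genes and no result as lists. Among known binding partners and TGF-beta genes, 2 of 15 tested rose and 2 fell, with a median of −0.16. ITGB3 (integrin beta-3) fell by 1.32 (SE 0.12, adjusted p = 0.000149), at 1.19 ± 0.251 RPKM in AURKA lines and 4.48 ± 0.576 RPKM in control lines. GPC1 (the proteoglycan glypican-1) fell by 0.86 (SE 0.22, limma adjusted p = 0.0237). TGFB1, the ligand whose latent form PSG1 activates, rose by 0.63 (SE 0.16, limma adjusted p = 0.0234), at 13.2 ± 2.77 RPKM in AURKA lines and 8.43 ± 1.20 RPKM in control lines. TGFB2 went the other way and was not called (−0.89, SE 0.30, limma adjusted p = 0.0658). It had 24.7 ± 9.24 RPKM in AURKA lines and 46.1 ± 11.1 RPKM in control lines. LGALS1 (galectin-1) rose by 0.42 (SE 0.10, limma adjusted p = 0.0182). ITGB3 was still called whichever line was left out (limma adjusted p at most 0.00174). The call was lost for TGFB1 without Empty or NES-Empty (limma adjusted p up to 0.118), for GPC1 without NES-Empty or NLS-Empty (up to 0.112) and for LGALS1 whichever control line was left out (up to 0.102).

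Of 10 tested factors linked to PSG promoters, RXRA (retinoid X receptor alpha) rose by 0.49 (limma adjusted p = 0.00400) and PPARG, its partner receptor, fell by 0.47 (limma adjusted p = 0.0375), with a list median of 0.02. Of 6 tested DNA methylation enzymes, TET2, a 5-methylcytosine dioxygenase, rose by 0.34 (limma adjusted p = 0.0281), with a median of 0.04, and DNMT1, the maintenance methyltransferase, gave 0.05 (limma adjusted p = 0.899). RXRA was still called whichever line was left out (limma adjusted p at most 0.0324). PPARG lost its call whichever control line was left out, and also without NES-AURKA c1, NLS-AURKA c2 or NLS-AURKA c3 (limma adjusted p up to 0.134), and TET2 did so whichever control line was left out and without WT-AURKA c1 (up to 0.123). Of 2 CEACAM genes tested, 0 were called (median 0.08): CEACAM1, the immune receptor, gave 0.27 (limma adjusted p = 0.456) and CEACAM19 −0.12 (limma adjusted p = 0.484). Of 3 line identity genes tested, 0 were called (median 0.05).

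Other placental genes did not share one direction. Of 39 listed genes in the table, 16 passed the filter, of which 4 rose and 2 fell, with a median of 0.27. KISS1 (kisspeptin) rose by 3.79 (SE 0.89, limma adjusted p = 0.0167), at 116 ± 129 RPKM in AURKA lines and 4.26 ± 1.40 RPKM in control lines, with a wide spread among AURKA lines. TFPI2, a protease inhibitor made by the placenta, rose by 1.50 (SE 0.14, limma adjusted p = 0.000253), at 18.9 ± 2.94 RPKM in AURKA lines and 6.35 ± 1.19 RPKM in control lines. SPINT1, a membrane protease inhibitor, fell by 1.74 (SE 0.22, limma adjusted p = 0.000995), and TFAP2C, a trophoblast transcription factor, rose by 0.78 (limma adjusted p = 0.0219). PAPPA (pappalysin-1, a placental protease, rose by 0.52, limma adjusted p = 0.0397) and GATA2 (a trophoblast transcription factor, fell by 0.41, limma adjusted p = 0.0245) were the other 2 called. TFPI2 and SPINT1 were still called whichever line was left out (limma adjusted p at most 0.0101). Whichever control line was left out, the calls of KISS1 (limma adjusted p up to 0.0743), TFAP2C (up to 0.105), GATA2 (up to 0.116) and PAPPA (up to 0.140) were lost, and that of PAPPA also without WT-AURKA c1, WT-AURKA c2, NLS-AURKA c2 or NLS-AURKA c3.

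Of the 15 genes nearest the PSG cluster on each side, 19 were tested. Limma called 0 of them lower, against 10.4% of all genes, and 2 higher, against 8.85%, with a median of 0.11; counts this small cannot be set apart from those shares. PLAUR (the urokinase receptor), 14 genes from PSG9, rose by 0.96 (SE 0.11, limma adjusted p = 0.000549), at 16.0 ± 2.30 RPKM in AURKA lines and 7.57 ± 0.455 RPKM in control lines. ERF (an ETS repressor), 11 genes from PSG3, rose by 0.32 (limma adjusted p = 0.0200). PLAUR was still called whichever line was left out (limma adjusted p at most 0.00701), and ERF lost its call whichever control line was left out (up to 0.104). CEACAM8, next to PSG3, and CD177, next to PSG9, were under the filter.

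The genes whose pattern over the 9 lines was most like the mean of the 10 members were FAM49A (r = 0.993), DGKD (diacylglycerol kinase delta, r = 0.991), AC006262.5 (r = 0.990), CXCL16 (a chemokine, r = 0.988) and EPCAM (an epithelial adhesion molecule, r = 0.988), of 7346 candidates. These r values are Pearson correlations of log2(RPKM + 1) over lines that fall into 2 groups, so they restate the gap between AURKA and control lines. FAM49A averaged 2.36 ± 0.401 RPKM in AURKA lines and 13.1 ± 1.52 RPKM in control lines, and AC006262.5 averaged 0.177 ± 0.141 RPKM in AURKA lines and 18.1 ± 0.653 RPKM in control lines. Over the 26 libraries, which also share the letter sets, the nearest were AC006262.5 (r = 0.966), CXCL16 (r = 0.949), CDH1 (E-cadherin, r = 0.935), PITPNM3 (r = 0.923) and AQP3 (an aquaporin, r = 0.919). CDH1 averaged 0.104 ± 0.0974 RPKM in AURKA lines and 3.64 ± 2.30 RPKM in control lines.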

How the data were processed

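RNA-seq libraries were made with the KAPA mRNA Hyper Prep Kit from total RNA, per the labels' protocols. The authors deposited 1 table of RPKM values (reads scaled by gene length and library size) for 33562 genes. The submitters' processing notes name HISAT2, SAMtools, Partek and the build hg19, without their order; versions, and how reads that fit several places were counted, are not given there. Values were used as deposited, as log2(RPKM + 1), with limma 3.58.1 in R 4.3.3 (empirical Bayes with a trend, Benjamini-Hochberg adjustment over 12589 genes that reached 1 RPKM in at least 2 libraries). A fold change on this scale understates the change of low genes. AURKA against control and construct comparisons used 1 value a line (mean of its libraries). Single lines and letter sets used libraries, and a call there also needed an absolute log2 difference of 1. Library depth was estimated from the steps between low RPKM values; with few reads, low members carry large counting error. The fits were tested on simulated data with 200 changed genes a comparison. Members and gene lists were chosen with earlier results of these data known. All 10 members are named, together with called genes of each list (at most 4 with the largest change, plus defining markers) and the 5 genes most like the members. Genes named beyond that (TGFB2, DNMT1, CEACAM1, CEACAM8, CEACAM19, CD177, PAPPA, GATA2, MALAT1 and NEAT1) were chosen after their values were seen. The tests between letter sets within AURKA or control lines, and construct comparisons that join a pseudocount of 0.1 with I to Z libraries or a letter-set term, were added after seeing the data. For a construct comparison with that term, line values came from a fit with both terms. Alternatives were another pseudocount, no filter, equal RPKM sums, letter sets alone or as a term, no trend, and leaving out lines or libraries. Some listed genes are not analysed here.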

Additional observations from a re-analysis of the deposited data

Results flagged for a closer look

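Dixon's test of the highest and lowest line mean among the 6 AURKA lines singled out 3 of the 10 members. Its rate of about 1 in 20 groups assumes normally distributed values. Means of a few reads from similar genes need not meet that, so the count is not set against the rate. PSG7 was high in NES-AURKA c2 at 0.123 RPKM, PSG3 was high in NES-AURKA c1 at 0.152 RPKM, and PSG11 was high in NES-AURKA c2 at 0.0779 RPKM. In NES-AURKA c2 library A stood out, with PSG7 at 0.254 RPKM against 0.0447 and 0.0695 RPKM in libraries U and V. PSG11 had 0.186 RPKM in library A, against 0 and 0.0476 RPKM in U and V. PSG3 ranged from 0.0940 to 0.241 RPKM over the libraries of NES-AURKA c1. A single read is worth 0.0107 to 0.0193 RPKM in these genes at the median depths. WT-AURKA c2, unlike the other lines, has no A to H library in its mean.

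The log2 difference of A to H from I to Z libraries was lower in AURKA lines than in control lines in limma for PSG9, PSG5, PSG1, PSG7, PSG3 and PSG8. On the log2(RPKM + 1) scale, AURKA minus control, it was −1.86 for PSG9, −1.94 for PSG5, −1.74 for PSG1, −2.0 for PSG7, −1.13 for PSG3 and −1.16 for PSG8. Limma called 95 of 12589 genes in this comparison, in either direction. PSG7, PSG3 and PSG8 entered it only through the A to H libraries of control lines. The members were chosen for values near 0 in AURKA lines, which leaves little room for a difference between the sets there, so nothing is read from these differences. With a pseudocount of 0.1 PSG9 gave −1.29 (limma adjusted p = 0.108).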

How the results depend on the processing

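The mean log2 difference of the 10 members in AURKA against control lines kept its direction under every alternative run. The members were chosen by this contrast in the same values, so its direction could hardly change and nothing is read from that. The difference was −1.44 as reported, −3.08 with a pseudocount of 0.1, −1.04 in I to Z libraries alone and −2.23 in A to H libraries alone, and −1.51 to −1.35 when a line was left out. With a pseudocount of 0.1, limma called 1 member in NLS-AURKA against NES-AURKA, 1 in NLS-AURKA against WT-AURKA, 1 in NES-AURKA against WT-AURKA and 6 in A to H against I to Z libraries (1 as reported). With a pseudocount of 0.1 and the letter set as a term, added after seeing the data, the construct comparisons gave 1, 0 and 0 members called in the same order, and 0 in each in I to Z libraries alone. With the letter set as a term and a pseudocount of 1, no member was called between constructs or lines. That term is shared by AURKA and control lines, whose set differences were unlike, so nothing is read from calls lost or absent with it. Leaving out a library gave 0 to 1 members called in A to H against I to Z libraries, among 790 to 1061 genes called. Within control lines it gave 5 to 6 members, among 1195 to 1409 genes called. For the difference between AURKA and control lines it gave 5 to 6 members, among 58 to 152 genes called. With all libraries, the 6 called in each of these included PSG7, PSG3 and PSG8, so neither count of 5 to 6 is support. The other comparisons of members gave 0 with a library left out. The 15 listed genes called in AURKA against control lines became 8 with no filter on low genes and 5 to 18 when a line was left out, with 6 without Empty, 5 without NES-Empty and 6 without NLS-Empty. ITGB3, TFPI2, SPINT1, PLAUR and RXRA stayed called whichever line was left out, with adjusted p of at most 0.0324. KISS1 reached an adjusted p of 0.0743. Depth limits the low members in AURKA lines, where 1 read is 0.0105 to 0.0193 RPKM. The cause of each change above was not tested. Fits with the letter set or the line as a block are given above; by replicate number, no paired analysis was possible because the titles give none shared between lines.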
